A study of Mus musculus with 9 samples.

Results

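The genes described here are those of the response to low oxygen and of glycolysis, measured in mouse melanomas grown from B16-F10 cells. The list holds 36 genes. It was taken by gene symbol or synonym from the names and descriptions of the array probes, and a probe counted when at least 3 of 9 arrays showed its tumour signal well above background. Of these genes 34 were measured, by 48 of their 51 probes, out of 13123 named genes and 26871 probes kept in all. The probe with the highest mean signal over both channels stood for each gene. Ankrd37 had no probe, and for Gapdh the probes found belong to loci described as similar to it or as homologs, which were not counted. The 34 measured genes comprise 14 hypoxia response genes outside glucose metabolism, 13 glycolytic enzymes, 5 transporters and switches of glycolytic flow, and 2 oxygen-regulated subunits of the hypoxia-inducible factors (HIF), Hif1a and Epas1.

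The tumours came from 3 variants of B16-F10, a melanin-forming mouse melanoma line, altered in histamine synthesis through the gene Hdc, which encodes L-histidine decarboxylase. HDC-S cells produce and release more histamine, HDC-A cells produce less, and HDC-M cells have the unmodified capacity. Each group had 6 tumours, whose RNA was combined in pairs, 2 tumours per pool, into 3 pools. Each pool was labelled with Cy5 and hybridised beside one Cy3-labelled reference, RNA of HDC-M cells grown in culture. Every group came from a single line variant, so histamine capacity and line cannot be told apart, and there was no dye swap.

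Hypoxia-inducible factors are pairs of an oxygen-regulated alpha subunit and a stable partner. In oxygenated cells prolyl hydroxylases mark the alpha subunit for destruction, so its activity is set mainly at the protein level. At low oxygen the factor binds DNA at a short core, ACGTG or GCGTG, and raises genes for glucose uptake, glycolysis, lactate export, acid balance, vessel growth and mitochondrial turnover. In melanoma, glycolysis is often high also in the presence of oxygen.

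Promoters were taken from RefSeq (mouse build GRCm38.p6), which matched 31 of the 34 genes. The sequences printed here are the 250 bases before the first listed transcription start of chosen genes. These are genes with large or called differences below, and P4ha2, which was lower in tumours than in culture. Of the genes called between groups, Ndrg1 had no matching promoter. Pkm is not printed, and its first listed promoter held no core. Capitals mark ACGTG or GCGTG, or their reverse complements CACGT and CACGC, 5′ to 3′ on the gene's strand.
Adm, chr7:110627407-110627656, plus strand: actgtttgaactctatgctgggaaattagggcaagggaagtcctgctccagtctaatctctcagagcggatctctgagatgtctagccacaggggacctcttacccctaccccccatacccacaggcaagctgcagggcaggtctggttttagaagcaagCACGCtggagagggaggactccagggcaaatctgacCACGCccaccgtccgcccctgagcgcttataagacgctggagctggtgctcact
Car9, chr4:43506776-43507025, plus strand: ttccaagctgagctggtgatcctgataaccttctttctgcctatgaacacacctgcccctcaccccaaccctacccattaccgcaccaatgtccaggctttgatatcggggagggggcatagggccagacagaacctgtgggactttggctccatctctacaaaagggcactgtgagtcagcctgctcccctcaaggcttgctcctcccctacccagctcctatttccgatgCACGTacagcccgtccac
Slc16a3, chr11:120948817-120949066, plus strand: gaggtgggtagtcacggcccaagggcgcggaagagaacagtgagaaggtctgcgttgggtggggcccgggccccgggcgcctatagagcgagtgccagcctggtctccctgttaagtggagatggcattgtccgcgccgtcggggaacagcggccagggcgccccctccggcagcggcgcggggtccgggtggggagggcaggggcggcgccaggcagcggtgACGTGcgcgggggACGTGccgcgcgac
Aldoc, chr11:78322823-78323072, plus strand: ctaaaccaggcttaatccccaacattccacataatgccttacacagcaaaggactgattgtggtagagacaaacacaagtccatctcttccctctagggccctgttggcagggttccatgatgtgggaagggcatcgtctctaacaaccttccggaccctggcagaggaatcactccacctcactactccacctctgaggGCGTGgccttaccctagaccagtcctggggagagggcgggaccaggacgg
Pfkl, chr10:78009808-78010057, minus strand: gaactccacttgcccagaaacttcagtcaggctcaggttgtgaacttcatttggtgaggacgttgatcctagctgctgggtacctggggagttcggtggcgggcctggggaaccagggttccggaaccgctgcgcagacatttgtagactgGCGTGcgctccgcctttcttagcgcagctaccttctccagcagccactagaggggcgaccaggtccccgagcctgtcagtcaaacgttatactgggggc
P4ha2, chr11:54100674-54100923, plus strand: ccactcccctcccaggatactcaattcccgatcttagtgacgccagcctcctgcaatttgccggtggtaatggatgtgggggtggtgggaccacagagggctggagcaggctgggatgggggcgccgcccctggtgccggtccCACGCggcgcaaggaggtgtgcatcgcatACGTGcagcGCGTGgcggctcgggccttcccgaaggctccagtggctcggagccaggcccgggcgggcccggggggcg

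On both strands of the 250 bases before the start, at least 1 of these cores was found in the first listed promoter of 23 of the 31 genes (74.2%). Over all promoters listed it was 12679 of 32851 (38.6%). The cores were in 9 of 12 hypoxia response genes, 8 of 13 glycolytic enzymes and all 5 transporters and switches. Bnip3, which drives the removal of mitochondria, had 5 cores, and so did the first promoter of Ldha, lactate dehydrogenase A. The first listed promoters of Vegfa, Mxi1, Hk1, Aldoa and Pkm and the only listed promoters of Car12, Gpi1 and Tpi1 had none. A match describes letters only, and overlapping cores were counted separately.

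Across the series, tumour signal was well above background at 58.0 to 69.7% of probe spots per array, and log2 ratios of single pools correlated with r between 0.899 and 0.950 within groups and between 0.862 and 0.922 across groups. The 3 arrays numbered 3 were scanned on a later day than the other 6, so each scan day holds all groups. The probe of Hdc itself was dim: its log2 ratios were 0.44, 0.33 and 0.61 in the HDC-S pools, 0.15, 0.15 and 0.42 in the HDC-A pools and 0.60, 0.48 and 0.06 in the HDC-M pools. The groups overlapped, and no difference passed (limma adjusted p between 0.463 and 0.864). Its reference signal lay at the level of the negative controls, 0.97 to 1.05 times their median. Unless stated otherwise, values below give tumour pool over cultured HDC-M cells on the log2 scale, and called differences are those with a limma p under 0.05 after Benjamini-Hochberg adjustment over all probes. These p-values measure the spread between pools of 1 line variant each. In whole tumours, fewer cells of a type and less RNA per cell cannot be told apart.

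Most of the genes were higher in the tumours than in the cultured cells, in all 3 groups. The called genes numbered 26 of 32 in HDC-S (24 higher and 2 lower), 25 of 32 in HDC-A (23 and 2) and 26 of 32 in HDC-M tumours (22 and 4). These counts leave out Aldoa, saturated in both channels, and Epas1, whose reference signal lay at the negative controls on all 9 arrays. Such calls were common on these arrays: of all probes 64.2% were called in HDC-S, 65.7% in HDC-A and 57.9% in HDC-M tumours, while 38.2% were called higher and 26% lower in HDC-S, 38.9% and 26.8% in HDC-A and 34% and 23.9% in HDC-M tumours. With Epas1 and with dim genes at their bounds, the median over the genes was 1.06 in HDC-S, 0.81 in HDC-A and 0.78 in HDC-M tumours, beside 0.06, 0.06 and 0.05 over all probes. Markers of host cells were also mostly called higher than in culture: fibroblast markers for 8 of 8 genes in each group, with medians of 3.16 in HDC-S, 3.54 in HDC-A and 3.03 in HDC-M tumours, macrophage markers for 9 of 9, 9 of 9 and 8 of 9, and skeletal muscle markers for 7 of 9, 9 of 9 and 8 of 9. Their part in the levels of the genes described here was not tested. The reference is 1 sample, so its own spread is not in these tests, and any dye effect of a probe is in its ratio.

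**Figure D1:**
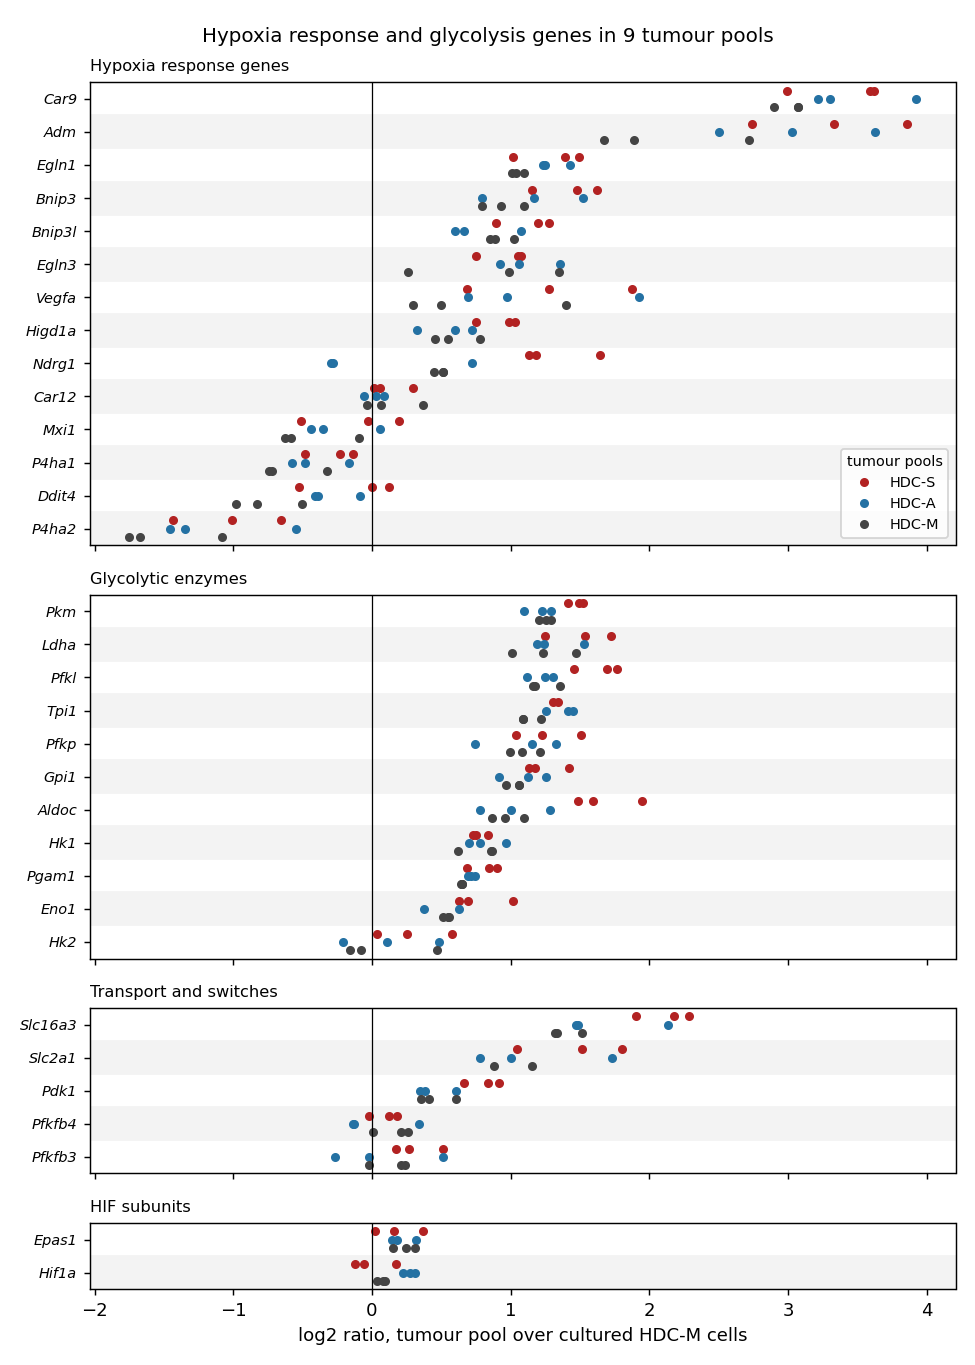
Log2 ratio of each tumour pool over cultured HDC-M cells (horizontal axis) for 32 genes in 4 role groups (rows). Each point is 1 pool of 2 tumours, coloured by group, and Aldoa and Pgk1 are left out because their tumour signal was saturated on all 9 arrays. Car9 and Adm lie farthest to the right and P4ha2 farthest to the left in all groups.

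Among the hypoxia response genes, Car9 and Adm stood highest over culture. Car9 encodes a membrane carbonic anhydrase with a part in acid balance. It had log2 ratios of 3.59, 3.62 and 2.99 in the HDC-S pools, 3.22, 3.92 and 3.30 in the HDC-A pools and 3.07, 3.07 and 2.90 in the HDC-M pools. Every pool lay near or above 3, and the group means were 10.6-fold, 11.2-fold and 8.07-fold over culture in HDC-S, HDC-A and HDC-M tumours (limma adjusted p = 1.27e-07, 9.66e-08 and 2.45e-07). Adm encodes adrenomedullin, a peptide that widens vessels. It had 3.33, 3.86 and 2.74 in the HDC-S pools, 2.50, 3.63 and 3.03 in the HDC-A pools and 1.89, 1.67 and 2.72 in the HDC-M pools. All 9 pools were above culture, with 2 of the HDC-M pools lowest, and group means of 9.90-fold in HDC-S, 8.29-fold in HDC-A and 4.27-fold in HDC-M tumours.

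Egln1, the main prolyl hydroxylase of the HIF alpha subunits, rose 2.46-fold in HDC-S, 2.47-fold in HDC-A and 2.07-fold in HDC-M tumours relative to culture. Bnip3 rose 2.67-fold, 2.24-fold and 1.92-fold in HDC-S, HDC-A and HDC-M tumours, and its relative Bnip3l 2.18-fold, 1.72-fold and 1.89-fold. Higd1a, a mitochondrial protein linked to the respiratory chain, rose 1.90-fold, 1.46-fold and 1.51-fold in the same groups. Vegfa, the main vessel growth factor, rose 2.42-fold in HDC-S and 2.29-fold in HDC-A tumours and was 1.66-fold over culture in HDC-M tumours, where it missed the threshold (limma adjusted p = 0.0502). Ndrg1, a stress-responsive gene often used as a marker of hypoxia, rose 2.50-fold in HDC-S and 1.40-fold in HDC-M tumours and stood at 1.03-fold in HDC-A tumours (limma adjusted p = 0.82). Egln3, a second HIF prolyl hydroxylase, had a reference signal at the negative controls on some arrays of each group, so its ratio is a bound: at least 1.89-fold in HDC-S, 2.01-fold in HDC-A and 1.80-fold in HDC-M tumours. Car12, another carbonic anhydrase, and Epas1 were near background, and no fold over culture is given for either.

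The collagen prolyl 4-hydroxylase subunits P4ha1 and P4ha2, which mature collagen chains, went the other way. P4ha2 had -1.01, -0.66 and -1.43 in the HDC-S pools, -1.35, -0.55 and -1.46 in the HDC-A pools and -1.68, -1.75 and -1.08 in the HDC-M pools. All 9 pools were below culture, and the group means were -1.03 in HDC-S, -1.12 in HDC-A and -1.50 in HDC-M tumours (limma adjusted p = 0.00134, 0.000809 and 0.000146). With median centring of each array P4ha2 stood at -0.69, -0.75 and -0.69 in HDC-S, HDC-A and HDC-M tumours and was no longer called (limma adjusted p = 0.0950, 0.0718 and 0.0821). P4ha1 was lower too, with -0.23, -0.13 and -0.49 in the HDC-S pools, -0.57, -0.16 and -0.49 in the HDC-A pools and -0.72, -0.74 and -0.33 in the HDC-M pools. Its group means of -0.28, -0.41 and -0.60 in HDC-S, HDC-A and HDC-M tumours all passed, but with median centring of each array that of HDC-S was 0.088. Ddit4, an inhibitor of the growth kinase mTORC1, and Mxi1, an antagonist of Myc, fell relative to culture in HDC-M tumours only by the threshold, with means of -0.77 and -0.43, of which that of Ddit4 was 0.034 with median centring. Their means were -0.13 and -0.11 in HDC-S and -0.30 and -0.24 in HDC-A tumours.

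The glycolytic enzymes rose over culture together. In each group 11 of the 12 enzymes with a ratio were called higher, with medians of 1.25 in HDC-S, 1.05 in HDC-A and 1.00 in HDC-M tumours. The exception in all groups was Hk2, an inducible hexokinase, at 1.22-fold, 1.09-fold and 1.06-fold in HDC-S, HDC-A and HDC-M tumours, while Hk1, the constitutive form, rose 1.71-fold, 1.76-fold and 1.72-fold. Further down the pathway Gpi1 rose, with measured ratios of 2.37-fold in HDC-S, 2.14-fold in HDC-A and 2.04-fold in HDC-M tumours that are too low where its tumour signal was saturated, on 1, 1 and 2 of the 3 arrays of these groups. The phosphofructokinase Pfkp rose 2.39-fold, 2.10-fold and 2.14-fold in the same groups. Tpi1, triose phosphate isomerase, had 1.30 and 1.34 in the HDC-S pools, 1.26, 1.45 and 1.41 in the HDC-A pools and 1.09, 1.09 and 1.22 in the HDC-M pools, with 1 HDC-S spot left out as an outlier. Its pools stayed within a narrow band, at 2.50-fold, 2.59-fold and 2.19-fold in HDC-S, HDC-A and HDC-M tumours. Pgam1, phosphoglycerate mutase, rose 1.75-fold, 1.64-fold and 1.57-fold, and Eno1, enolase, 1.72-fold, 1.42-fold and 1.45-fold. Pgk1, phosphoglycerate kinase, had a saturated tumour signal on all arrays, so it was at least 2.08-fold over culture in HDC-S, 1.96-fold in HDC-A and 1.80-fold in HDC-M tumours. Aldoa, aldolase A, was saturated in both channels and has no ratio. The brightest Ldha probe was saturated on 8 of 9 arrays. A dimmer, unsaturated Ldha probe read 2.17, 2.27 and 2.16 in the HDC-S pools, 2.02, 2.06 and 2.10 in the HDC-A pools and 1.79, 1.81 and 1.86 in the HDC-M pools.

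Of the transporters and switches, Slc16a3, the lactate exporter MCT4, was the highest over culture at 4.35-fold in HDC-S, 3.24-fold in HDC-A and 2.62-fold in HDC-M tumours. Slc2a1, the glucose transporter GLUT1, rose 2.74-fold, 2.25-fold and 2.02-fold in the same groups. Pdk1, a kinase that keeps pyruvate out of the mitochondria, rose 1.75-fold, 1.36-fold and 1.37-fold. The 2 isoforms of the enzyme that makes fructose 2,6-bisphosphate, an activator of phosphofructokinase, stayed lower: Pfkfb3 was called only in HDC-S tumours (1.25-fold) and Pfkfb4 in no group. Hif1a itself was at 0.998-fold in HDC-S, 1.21-fold in HDC-A and 1.05-fold in HDC-M tumours, and only the HDC-A value passed (limma adjusted p = 0.00191).

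Neighbouring gene lists differed in direction. The counts in this paragraph are of called genes. Of all probes 38.2% were called higher and 26% lower in HDC-S, 38.9% and 26.8% in HDC-A and 34% and 23.9% in HDC-M tumours. Of 17 citric acid cycle and respiratory chain genes, 11 were called higher and 3 lower than in culture in HDC-S tumours. The counts were 10 and 4 in HDC-A and 13 and 2 in HDC-M tumours. The medians of this list were 0.30 in HDC-S, 0.30 in HDC-A and 0.40 in HDC-M tumours. Of 27 other HIF targets, 16 rose and 6 fell relative to culture in HDC-S, 17 rose and 7 fell in HDC-A, and 13 rose and 6 fell in HDC-M tumours. Angptl4, a secreted lipase inhibitor, stood highest at 3.48, 3.43 and 3.11 in HDC-S, HDC-A and HDC-M tumours, and Hmox1, heme oxygenase, was at -1.33, -1.49 and -1.80. Of 18 other isoforms and branch enzymes of glucose metabolism, 5 rose and 8 fell in HDC-S, 6 rose and 6 fell in HDC-A, and 4 rose and 7 fell in HDC-M tumours. G6pdx, the entry enzyme of the pentose phosphate pathway, fell to -1.91, -2.00 and -2.13 in HDC-S, HDC-A and HDC-M tumours, and Eno2 to -1.39, -1.54 and -1.27. The amino acid and endoplasmic reticulum stress genes fell almost throughout, 13 of 14 in HDC-S and 14 of 14 in both HDC-A and HDC-M tumours, with medians of -1.47, -1.64 and -1.52. Ddit4 is also known as a target of that stress response.

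**Figure D2:**
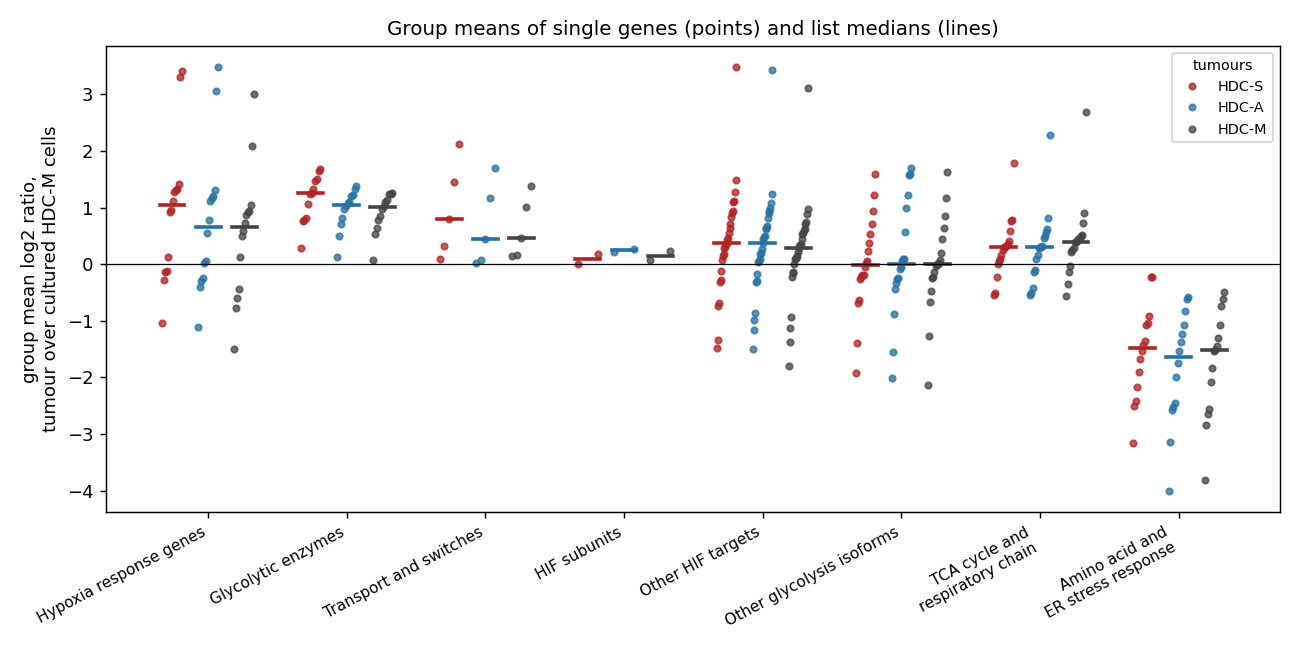
Group mean log2 ratio of tumour over cultured HDC-M cells (vertical axis) for the 4 role groups of this list and 4 neighbouring lists (horizontal axis), in HDC-S, HDC-A and HDC-M tumours from left to right within each list. Points are genes and lines are list medians. The median of the glycolytic enzymes lies at 1.25, 1.05 and 1.00, and that of the amino acid and endoplasmic reticulum stress genes at -1.47, -1.64 and -1.52.

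In HDC-S against HDC-M tumours, the genes leaned higher in HDC-S but none was called. Of 32 genes 27 were above 0, and 0 passed in limma, beside 0.681% of all probes called and 53.2% above 0. At an unadjusted p under 0.05 there were 12. The share of all probes under this cutoff is not given, so such counts, here and below, have no baseline. The median difference was 0.26, beside 0.01 over all probes. The pools of 12 genes did not overlap, all with HDC-S higher, which was the case for 11.5% of all probes. This lean depended on scaling: the median was -0.067 with median centring of each array, where that of all probes was -0.12, and -0.0062 with scaling between arrays.

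Adm differed most, with the pool values given above: 2 HDC-S pools exceeded all HDC-M pools clearly, the third by little. Its difference was 1.21 (SE 0.37, limma adjusted p = 0.173). Ndrg1 had 1.18, 1.64 and 1.13 in the HDC-S pools, -0.29, 0.72 and -0.28 in the HDC-A pools and 0.51, 0.44 and 0.51 in the HDC-M pools. All HDC-S pools lay above all others, the HDC-M pools lay close together, and the difference from HDC-M was 0.83 (SE 0.25, limma adjusted p = 0.169). Slc16a3 had 2.18, 2.29 and 1.90 in the HDC-S pools, 1.49, 2.14 and 1.47 in the HDC-A pools and 1.32, 1.33 and 1.51 in the HDC-M pools. The HDC-S pools were all above the HDC-M pools, by 0.73 on average (SE 0.17, limma adjusted p = 0.101), while 1 HDC-A pool reached the HDC-S range. Aldoc, aldolase C, had 1.95, 1.60 and 1.48 in the HDC-S pools, 1.01, 0.78 and 1.29 in the HDC-A pools and 0.86, 1.09 and 0.96 in the HDC-M pools. Every HDC-S pool lay above every other pool, by 0.70 over HDC-M (SE 0.15, limma adjusted p = 0.0723).

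Of the remaining genes, Ddit4 had 0.00, 0.12 and -0.53 in the HDC-S pools, -0.41, -0.09 and -0.39 in the HDC-A pools and -0.98, -0.83 and -0.51 in the HDC-M pools. Its HDC-S and HDC-M pools overlapped narrowly at a difference of 0.64 (limma adjusted p = 0.148). Pdk1 differed by 0.35 and Bnip3 by 0.48, without overlap and without a call (limma adjusted p = 0.151 and 0.265). Pfkfb4 had 0.12, 0.18 and -0.02 in the HDC-S pools, -0.13, 0.34 and -0.14 in the HDC-A pools and 0.26, 0.21 and 0.01 in the HDC-M pools. It was among the lowest differences at -0.07, with complete overlap. The unsaturated Ldha probe, looked at because the brightest one was saturated, was 0.38 higher in HDC-S than in HDC-M tumours (limma adjusted p = 0.0319). It was singled out after its values were seen, and its result under other settings is not given. Probes called in this comparison (183) numbered 70 with the replicate block, 85 with the scan-day block and 5 with median centring. Without background correction they numbered 315. The brightest probe was saturated in 3 HDC-S and 2 HDC-M pools, so its difference of 0.27 is not a measured size.

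**Figure D3:**
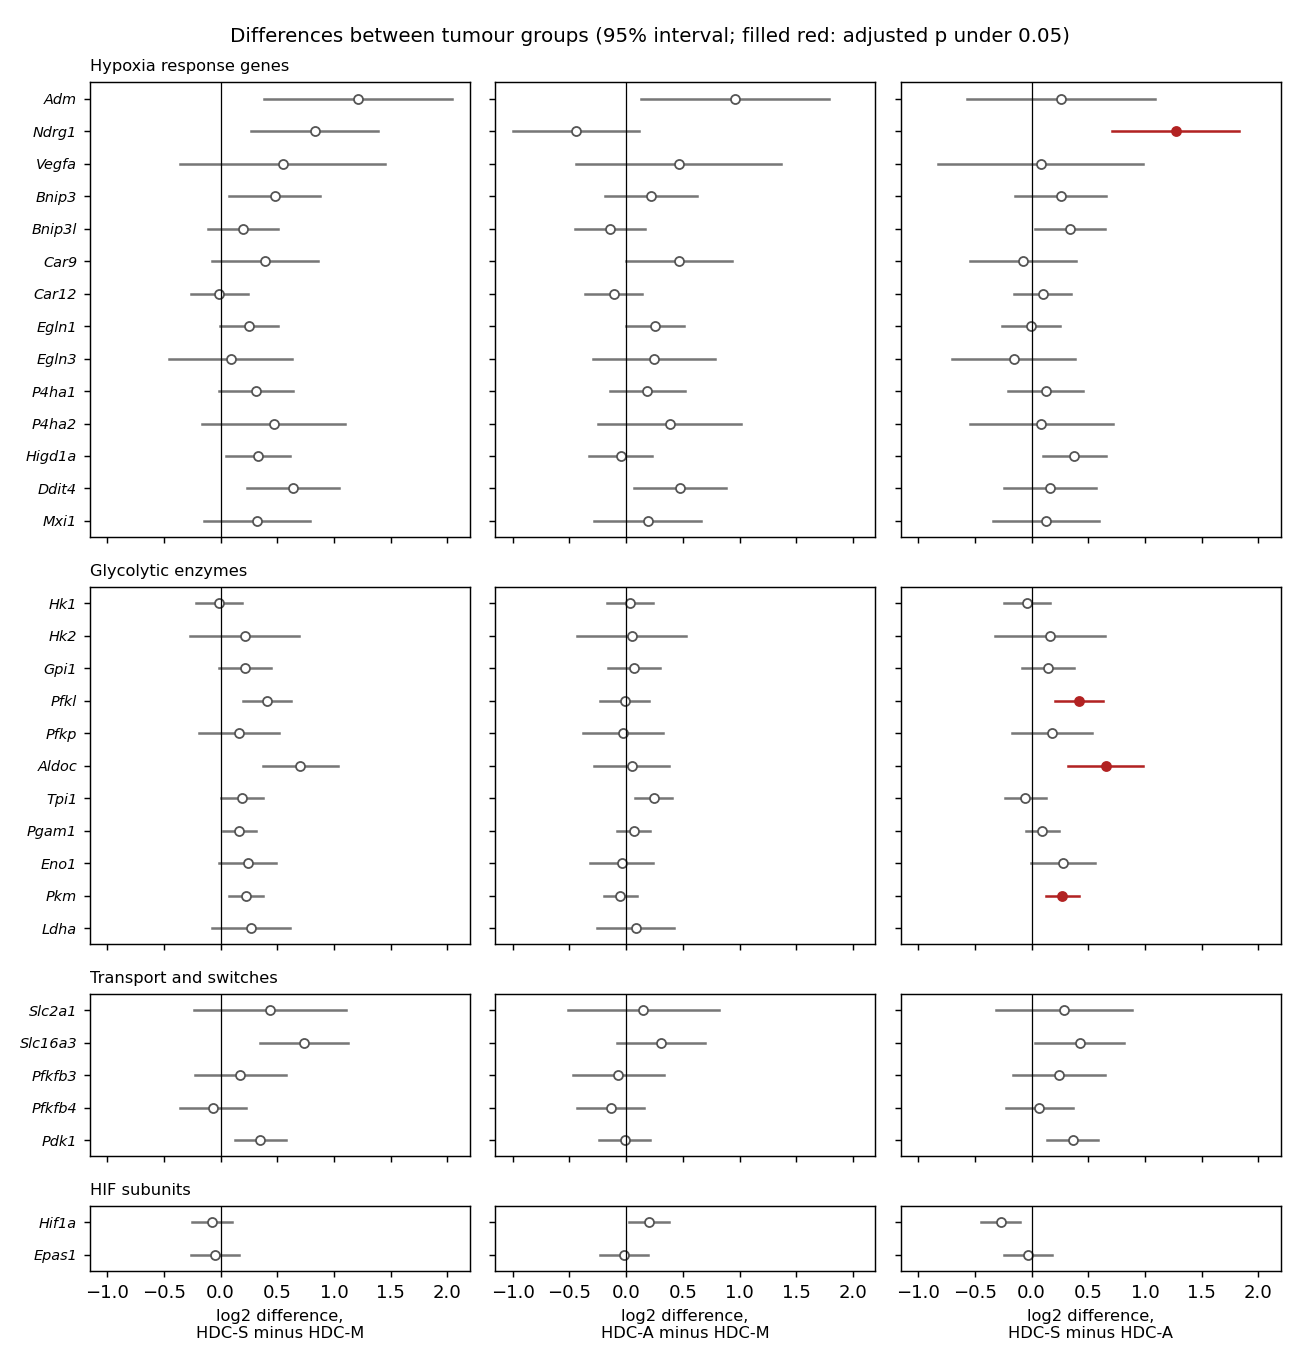
Log2 differences between tumour groups for 32 genes (rows) in 3 comparisons (panels), with 95% intervals from limma as horizontal lines. Filled red points passed after adjustment: Ndrg1, Aldoc, Pfkl and Pkm in HDC-S minus HDC-A, none in the other comparisons. Ldha has no point in HDC-S minus HDC-A because it was saturated in all pools of both groups.

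Values within each scan day are given side by side; the difference between the days was not tested. Among pools scanned on the first day, 26 of 32 genes were higher in HDC-S than in HDC-M, with a median of 0.46, and on the second day 17 of 31, with a median of 0.021. The split was wide for the hypoxia response genes, whose median was 0.62 on the first day and -0.03 on the second. Adm differed by 1.81 on the first day and 0.02 on the second, Vegfa by 1.18 and -0.71, and Ddit4 by 0.97 and -0.02. In this comparison the glycolytic enzymes varied less between days, at medians of 0.24 and 0.19. Aldoc differed by 0.79 and 0.52, Ndrg1 by 0.93 and 0.62, Slc16a3 by 0.91 and 0.39 and Pkm by 0.20 and 0.26. In HDC-S against HDC-A tumours the median of the glycolytic enzymes was 0.28 on the first day and 0.011 on the second. The second day holds 1 pool per group, so it has no replicate check.

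**Figure D4:**
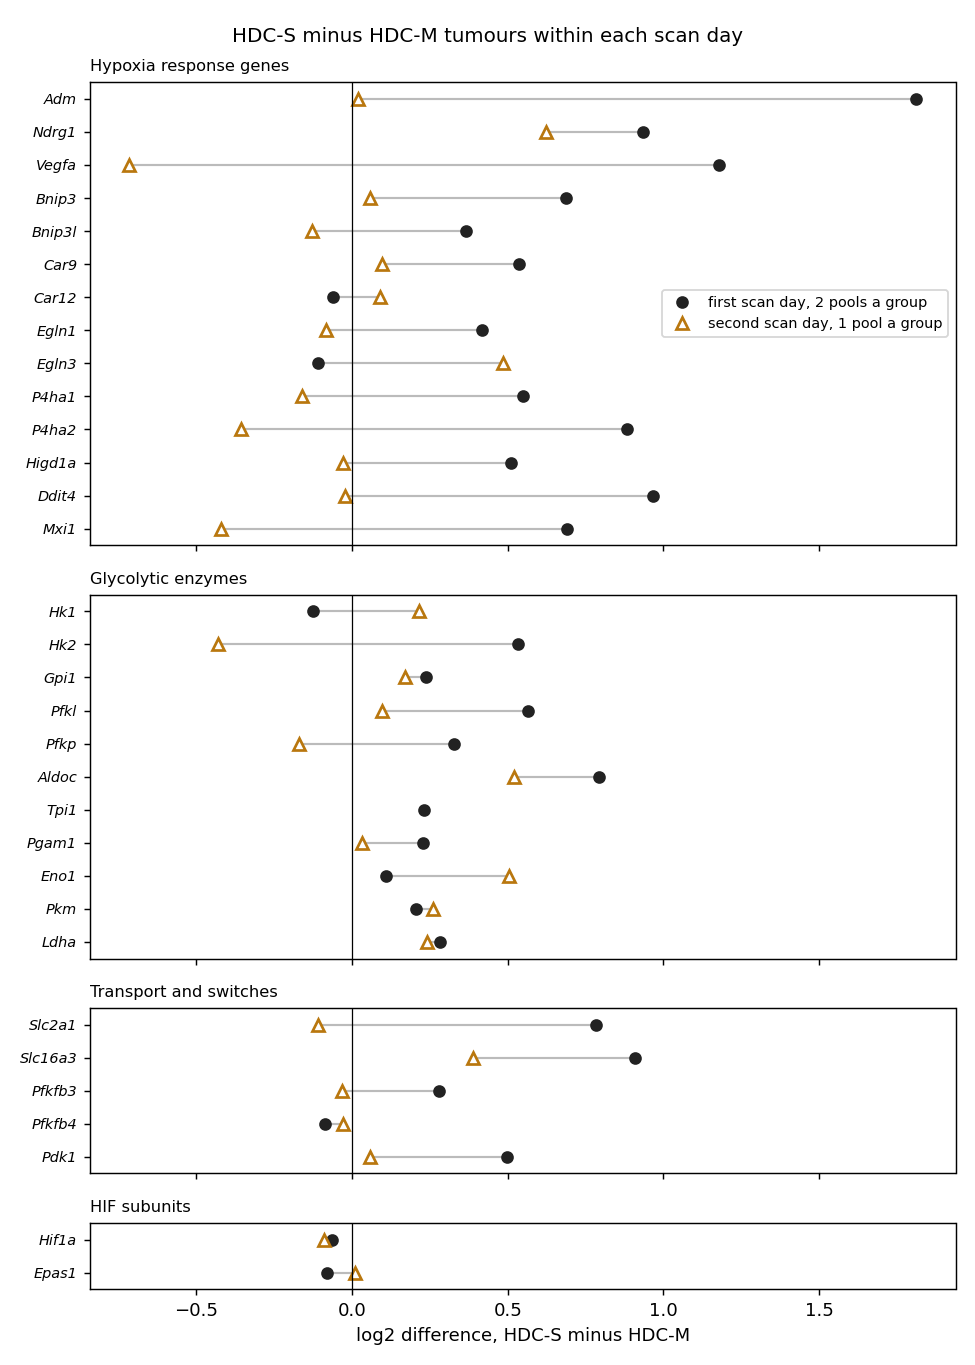
Log2 difference of HDC-S minus HDC-M tumours (horizontal axis) for 32 genes (rows), from the pools of the first scan day (filled circles, means of 2 pools a group) and of the second (open triangles, 1 pool a group). Adm lies at 1.81 and 0.02 and Vegfa at 1.18 and -0.71, while Aldoc lies at 0.79 and 0.52. Tpi1 has no second-day value.

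The spread between pools of 1 group differed by role. The pooled SD over groups had a median of 0.29 among hypoxia response genes and 0.14 among glycolytic enzymes, beside 0.10 over all probes. It was largest for Vegfa (0.61) and Adm (0.56) and smallest for Pgam1 (0.067) and Pkm (0.070). Vegfa had 1.27, 1.88 and 0.68 in the HDC-S pools, 0.69, 1.92 and 0.98 in the HDC-A pools and 0.50, 0.30 and 1.40 in the HDC-M pools. High and low pools occurred in every group. HDC-S replicate 2 had the highest value of all 9 arrays for 18 of 32 genes and HDC-A replicate 2 for 7, and HDC-A replicate 1 had the lowest for 12.

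In HDC-A against HDC-M tumours the genes showed no common direction. Of 32 genes 20 were above 0, beside 51.9% of all probes, and 0 passed in limma, beside 1.44% of all probes. At an unadjusted p under 0.05 there were 5. The median was 0.07, and it was -0.29 with median centring, where that of all probes was -0.11, and -0.19 with scaling between arrays. The pools of 6 of the 32 genes did not overlap, all with HDC-A higher, beside 9.84% of all probes without overlap and with HDC-A higher. Adm differed by 0.96 (limma adjusted p = 0.247), Ddit4 by 0.47 (0.24 by the same test), Car9 by 0.47 (0.321) and Vegfa by 0.47 (0.65). With scaling between arrays Adm stood at -0.042, Car9 at -0.59 and Vegfa at -0.020. At the other end, Ndrg1 differed by -0.44 (limma adjusted p = 0.45) and Bnip3l by -0.14. Bnip3l had 1.20, 1.28 and 0.89 in the HDC-S pools, 0.60, 1.08 and 0.67 in the HDC-A pools and 0.85, 0.89 and 1.02 in the HDC-M pools. Its groups overlapped. Without HDC-A replicate 2, the pool with high Ndrg1, the Ndrg1 difference was -0.78 and passed, and Ndrg1 and Slc16a3 then also passed in HDC-S against HDC-M.

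In HDC-S against HDC-A tumours 4 genes were called, all higher in HDC-S: Ndrg1 and the glycolytic enzymes Aldoc, Pfkl and Pkm. They are 4 of 31 genes, beside 5.26% of all probes called in either direction and 2.84% called higher. At an unadjusted p under 0.05 there were 9 genes. Of the 31 genes 24 were above 0, beside 51.4% of all probes, with a median of 0.16. Pools did not overlap for 7 genes with HDC-S higher and 1 with HDC-S lower, beside 13% and 10.8% of all probes.

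Ndrg1 was 2.41-fold higher in HDC-S than in HDC-A tumours, a difference of 1.27 (SE 0.25, limma adjusted p = 0.0221). Aldoc was 1.57-fold higher, by 0.65 (SE 0.15, limma adjusted p = 0.0361). Pfkl, the liver type phosphofructokinase, had 1.70, 1.77 and 1.46 in the HDC-S pools, 1.11, 1.30 and 1.25 in the HDC-A pools and 1.16, 1.18 and 1.36 in the HDC-M pools. All HDC-S pools were above all others, by 0.42 over HDC-A (SE 0.10, limma adjusted p = 0.0374). Pkm, pyruvate kinase, had 1.41, 1.49 and 1.52 in the HDC-S pools, 1.09, 1.22 and 1.29 in the HDC-A pools and 1.29, 1.20 and 1.26 in the HDC-M pools. The HDC-S pools again lay above all others, by 0.27 over HDC-A (SE 0.07, limma adjusted p = 0.0473). The exact two-sided permutation p for each of these genes was 0.1, the smallest that 3 against 3 arrays can give.

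**Figure D5:**
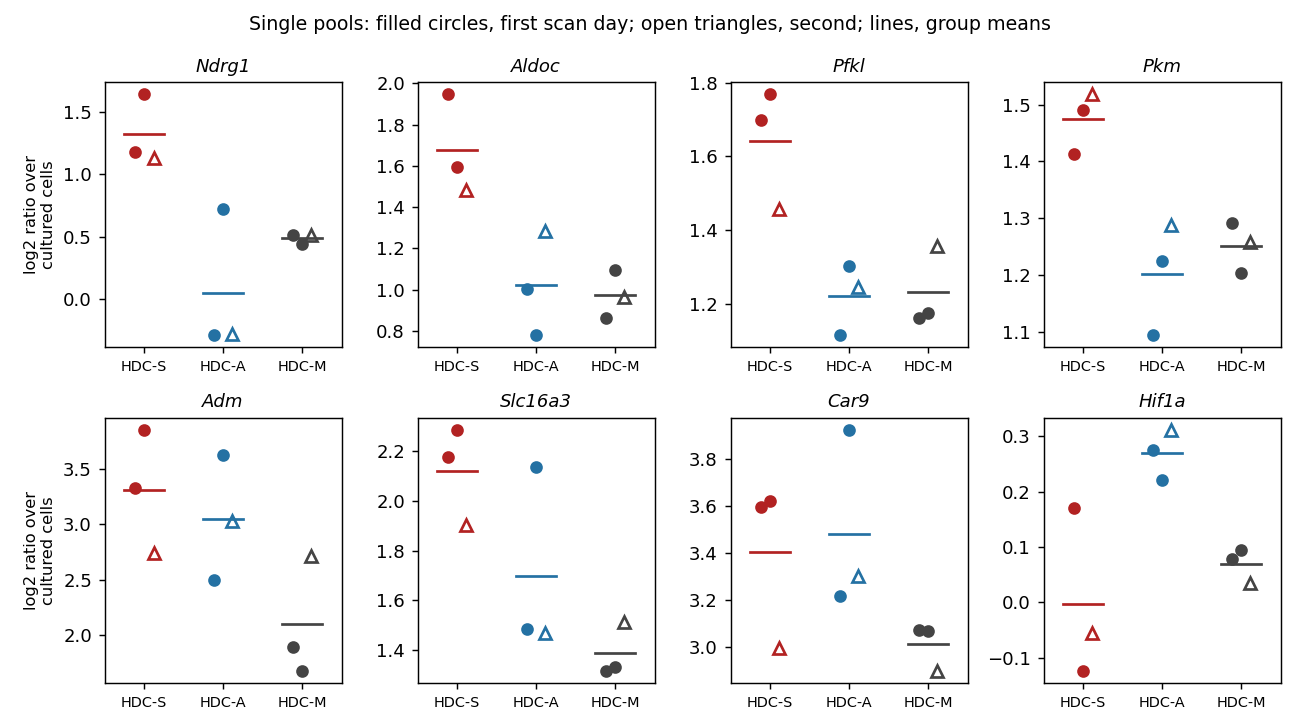
Log2 ratio over cultured HDC-M cells (vertical axis, scaled per panel) for 8 genes in HDC-S, HDC-A and HDC-M tumours (horizontal axis). Filled circles are pools of the first scan day, open triangles pools of the second, and lines group means. For Ndrg1, Aldoc, Pfkl and Pkm all HDC-S pools lie above all HDC-A and HDC-M pools, and for Hif1a all HDC-A pools lie above all HDC-S and HDC-M pools.

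The 4 calls were close to the threshold. None of the 4 passed in the authors' table or in the Cy5 channel alone, and with scan day as a block only Ndrg1 did (limma adjusted p = 0.0283), beside 0.0552, 0.0571 and 0.055 for Aldoc, Pfkl and Pkm. With the replicate number as a block, Ndrg1 again was the one gene called (limma adjusted p = 0.0197), beside 0.0661, 0.0651 and 0.0685 for Aldoc, Pfkl and Pkm. The differences on the first and second day were 1.20 and 1.42 for Ndrg1, 0.88 and 0.20 for Aldoc, 0.52 and 0.21 for Pfkl and 0.29 and 0.23 for Pkm. When each of the 9 pools was left out in turn, Ndrg1 passed in 4 fits, Pfkl in 2, Aldoc in 1 and Pkm in 0, and no pool could be left out with all 4 calls kept. Their differences stayed between 1.10 and 1.61, 0.36 and 0.51, 0.52 and 0.78, and 0.22 and 0.32.

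Below the threshold, Pdk1 was 0.36 and Higd1a 0.38 higher in HDC-S than in HDC-A tumours (limma adjusted p = 0.072 and 0.122), and Slc16a3 0.42 (0.213 by the same test). Egln3 had 1.05, 1.07 and 0.75 in the HDC-S pools, 0.92, 1.36 and 1.06 in the HDC-A pools and 1.35, 0.99 and 0.26 in the HDC-M pools, with overlapping groups and a difference of -0.16. The largest negative difference was that of Hif1a. It had 0.17, -0.12 and -0.06 in the HDC-S pools, 0.28, 0.22 and 0.31 in the HDC-A pools and 0.08, 0.09 and 0.04 in the HDC-M pools. Every HDC-A pool was above every other pool, and the difference was -0.27 for HDC-S minus HDC-A (SE 0.08, limma adjusted p = 0.0807) and 0.20 for HDC-A minus HDC-M (limma adjusted p = 0.254). Without HDC-S replicate 1 the HDC-S against HDC-A difference passed at -0.36. Epas1, against a reference signal at the negative controls that gives no level relative to culture, had 0.02, 0.37 and 0.16 in the HDC-S pools, 0.15, 0.31 and 0.18 in the HDC-A pools and 0.31, 0.25 and 0.15 in the HDC-M pools, with no order among the groups.

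The wider pathway gave few calls between groups, and calls were rare over all probes too. Of all probes 0.681% were called in HDC-S against HDC-M, 1.44% in HDC-A against HDC-M and 5.26% in HDC-S against HDC-A. Of the 27 other HIF targets 0 passed in limma in any comparison, with 9, 5 and 3 at an unadjusted p under 0.05 in HDC-S against HDC-M, HDC-A against HDC-M and HDC-S against HDC-A. The smallest p belonged to Gbe1, a glycogen branching enzyme (0.44, limma adjusted p = 0.074), Insig2 (-0.41, 0.12) and Tgfb3 (-0.33, 0.0860). Of 11 other genes of HIF regulation 0 passed, with 2, 0 and 1 at an unadjusted p under 0.05, and the smallest p belonged to Ep300, a coactivator, at 0.16 in HDC-S against HDC-M and 0.18 in HDC-S against HDC-A, and to Vhl, which marks HIF alpha for destruction, at 0.23 in HDC-A against HDC-M. Pdhb, a subunit of pyruvate dehydrogenase, differed by -0.40 between HDC-A and HDC-M tumours and by 0.24 between HDC-S and HDC-A tumours. Pdk3, one of its kinases, differed by 0.35 between HDC-A and HDC-M tumours and by -0.28 between HDC-S and HDC-A tumours. All 4 of these differences passed, but with the replicate block the HDC-S against HDC-A differences of Pdhb and Pdk3 did not (limma adjusted p = 0.0844 and 0.0880). In HDC-A against HDC-M tumours Pdhb passed with that block (limma adjusted p = 0.0483) and Pdk3 did not (limma adjusted p = 0.0808). In the citric acid cycle and respiratory chain list of 17 genes, Ppargc1a, a regulator of mitochondrial formation, was lower in HDC-S than in HDC-M (-0.89), Sucla2 (-0.36) and Uqcrc1 (-0.40) were lower in HDC-A against HDC-M, and Cyc1 was higher in HDC-S than in HDC-A (0.50). With the replicate block Sucla2 and Uqcrc1 did not pass (limma adjusted p = 0.0520 and 0.0796). With scan day as a block Ppargc1a did not pass (limma adjusted p = 0.0641).

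Some genes of neighbouring programmes and markers of other cells differed between the groups, and their part in the results above was not tested. In HDC-S against HDC-A tumours 5 of 14 amino acid and endoplasmic reticulum stress genes were called higher, Asns (0.85), Trib3 (0.84), Chac1 (0.98), Atf4 (0.69) and Sesn2 (0.35), and Xbp1 was called lower (-0.29). In this comparison 2.84% of all probes were called higher and 5.26% in either direction. With the replicate block Sesn2 was not called (limma adjusted p = 0.0644). Trib3 was called higher in HDC-S than in HDC-M (0.65), and Asns lower in HDC-A against HDC-M (-0.45, but 0.33 with scaling between arrays). With the replicate block neither passed there (limma adjusted p = 0.0877 for Trib3 and 0.0583 for Asns). Markers of skeletal muscle, a glycolytic tissue, were lower for 9 of 9 genes in HDC-S against HDC-A tumours and higher for 9 of 9 in HDC-A against HDC-M tumours, though 0 passed in limma (3 and 4 at an unadjusted p under 0.05). Their median per array lay between 1.03 and 3.41 in HDC-S, 2.40 and 3.72 in HDC-A and 1.12 and 2.46 in HDC-M tumours. Keratinocyte markers were lower in HDC-S for 9 of 9 genes against either group, with medians per array of 0.14 to 1.08 in HDC-S, 1.34 to 2.78 in HDC-A and 1.47 to 2.88 in HDC-M tumours, and 0 passed in limma (6 against HDC-M and 4 against HDC-A at an unadjusted p under 0.05). Macrophage markers were higher in HDC-S than in HDC-M for 9 of 9 genes, and in HDC-A than in HDC-M for 8 of 9, at array medians of 1.15 to 1.81 in HDC-S, 1.19 to 2.12 in HDC-A and 0.61 to 1.46 in HDC-M tumours. In both comparisons 0 passed in limma and 0 had an unadjusted p under 0.05. Of 8 melanocytic markers, which stand for the tumour cells, 7 were lower in HDC-S than in HDC-M (median -0.12) and 3 were lower and 5 higher in HDC-S than in HDC-A (median 0.02). In HDC-A against HDC-M tumours 6 of the 8 were lower (median -0.26), with 0 called in limma. At an unadjusted p under 0.05 there were 5 in that comparison, 3 in HDC-S against HDC-M and 4 in HDC-S against HDC-A. Oca2 was called lower in HDC-S than in HDC-M (-1.02) and than in HDC-A (-0.62), and Tyr lower in HDC-S than in HDC-A (-0.48).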

How the data were processed

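RNA of 9 tumour pools was measured on 2-colour Agilent mouse arrays, Cy5 for the pool and Cy3 for the common reference. The deposited scanner files hold intensity values per spot (software per the file headers: Agilent Feature Extraction, version 8.5.1.1), and other columns, per the file headers, that mark spots as above background, saturated or outlier. The authors' value table is on a log10 scale, Cy5 over Cy3: it equals the deposited log10 column of the scanner files (largest difference 0), with column medians between -0.0094 and 0, which settles its scale and direction.

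Mean signals were corrected with normexp (offset 50) and normalised by loess within arrays in limma 3.58.1 (R 4.3.3). Control and outlier spots were left out, repeated spots were averaged, and probes needed a Cy5 signal well above background on 3 or more of the 9 arrays (26871 kept, 14303 left out). All 9 arrays entered 1 limma fit (lmFit, eBayes) without a block, with Benjamini-Hochberg adjustment over all probes and a threshold of 0.05. No difference is given for a gene saturated in both groups. A reference signal at or below the 95th percentile of the 314 negative control spots gave a bound.

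The members and lists were chosen with earlier results of these data known. Pool values are given for both HIF subunits, for genes called between groups and for the 4 highest and 2 lowest genes of each comparison, and for genes at the ends of the comparison with culture. Of each other list the genes called between groups, or else the one with the smallest p, are named. The unsaturated Ldha probe, Angptl4, Hmox1, G6pdx and Eno2 were singled out after their values were seen. Deviations of same-numbered HDC-S and HDC-A pools correlated at 0.11, 0.55 and 0.13, all above 0.1, so the replicate block is given beside calls in that comparison. Differently numbered pools also did, at 0.22 for HDC-A replicate 1 with HDC-S replicate 3 and 0.20 for HDC-A replicate 3 with HDC-S replicate 1. The remaining pairs of these groups lay between -0.32 and -0.26. These values do not establish that pools were paired by number. With HDC-M pools 1 of 6 same-numbered pairs was above 0.1. The number of arrays limits the precision. The fit was tested on simulated data. Alternatives were the background correction, both normalisations, the authors' table, filters, probe choice, blocks, scan days, the Cy5 channel alone, the samples in the fit and leaving out each array.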

Additional observations from a re-analysis of the deposited data

How the results depend on the processing

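The genes called in HDC-S against HDC-A (4) numbered 0 with median centring, scaling between arrays, the authors' table, the Cy5 channel alone, the first scan day alone or only the 2 groups compared, and 1 with scan day as a block. With the replicate block they also numbered 1 (Ndrg1), and probes called were 70 in HDC-S against HDC-M and 187 in HDC-A against HDC-M. The block also ended the calls of Pdhb, Pdk3 and Sesn2 in HDC-S against HDC-A, of Asns, Pdk3, Sucla2 and Uqcrc1 in HDC-A against HDC-M and of Trib3 in HDC-S against HDC-M. Deviations correlated at -0.19 to 0.55 for same-numbered and -0.32 to 0.28 for other pairs of pools. With 1 array left out, called genes ranged between 0 and 3 in HDC-S against HDC-A, 0 and 2 in HDC-S against HDC-M and 0 and 1 in HDC-A against HDC-M.

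Probes called in HDC-S against HDC-M (183) numbered 315 without background correction, 5 with median centring, 37 with scaling, 7 in the authors' table, 85 with the scan-day block, 30 on the first day, 10 in Cy5 alone, 12 with 2 groups, and 4 to 189 with 1 array left out. In HDC-A against HDC-M (387) they numbered 2, 50, 18, 184, 5, 191 and 86 under the same settings from median centring on, and 21 to 218 with 1 array left out. In HDC-S against HDC-A (1412) they numbered 4 with median centring, 151 with scaling, 392 in the authors' table, 9 on the first day, 532 in Cy5 alone, 740 with 2 groups, and 455 to 1389 with 1 array left out. Called probes were higher in HDC-S than in HDC-M for 64.5%, and for 40% with median centring and 48.6% with scaling. Relative to culture, 59.5% of called probes were higher in HDC-S, 59.2% in HDC-A and 58.8% in HDC-M tumours, and 78.2%, 78.4% and 84.8% with median centring.

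The median of the genes in HDC-S against HDC-M (0.26) was -0.067 with median centring, -0.0062 with scaling, 0.46 on the first and 0.021 on the second scan day, and 0.19 to 0.40 with 1 array left out. In HDC-A against HDC-M it was -0.29 with median centring, -0.19 with scaling and 0.015 to 0.15 with 1 array left out, and in HDC-S against HDC-A 0.0058 on the second day and 0.049 to 0.29 with 1 array left out. Relative to culture the median was 1.34 in HDC-S, 1.16 in HDC-A and 1.45 in HDC-M tumours with median centring, and 1.24, 1.03 and 0.94 in the authors' table. With the mean over a gene's probes it was 0.86 in HDC-S and 0.60 in HDC-M tumours, on the second day 0.86 and 0.65, without background correction 0.93 in HDC-S, and with scaling 0.93 in HDC-M tumours.

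Single genes changed sign as follows. With median centring Hif1a in HDC-A against HDC-M was -0.20 and Epas1 0.026, Vhl there was -0.087 and Gbe1 in HDC-S against HDC-M -0.037, P4ha1 in HDC-S tumours relative to culture was 0.088, and Ddit4 in HDC-M tumours 0.034. With scaling Adm, Car9 and Vegfa in HDC-A against HDC-M were -0.042, -0.59 and -0.020, and Asns 0.33. In Cy5 alone Epas1 was 0.026 in HDC-S against HDC-M and 0.031 in HDC-A against HDC-M, and with 1 array left out it lay between -0.14 and 0.031 in HDC-S against HDC-M, -0.070 and 0.017 in HDC-A against HDC-M and -0.12 and 0.051 in HDC-S against HDC-A. The cause was not tested for any of these. Dim reference signal limits Egln3, Car12 and Epas1, and saturation limits Aldoa, Pgk1, Ldha and Gpi1.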

Other observations

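Markers of vessels and of matrix cells are given here beside the vessel genes Adm and Vegfa. Endothelial markers were lower in HDC-S than in HDC-A tumours for 9 of 10 genes (median -0.18) and higher for 8 of 10 in HDC-A against HDC-M (median 0.11), and 0 passed in limma in either comparison (1 and 0 at an unadjusted p under 0.05). Fibroblast markers were higher for 8 of 8 genes in HDC-A against HDC-M (median 0.53) and lower in HDC-S than in HDC-A for 8 of 8 (median -0.49), with 0 called in limma and 0 at an unadjusted p under 0.05. HDC-A replicate 2 had the highest fibroblast and endothelial medians of all 9 arrays, at 4.58 and 1.18, and also the highest Vegfa value. The next highest Vegfa values were those of HDC-S replicate 2 and HDC-M replicate 3. Their fibroblast medians were 3.88 and 2.49 and their endothelial medians 0.71 and 0.68. A relation between Vegfa and these markers was not tested. Adipocyte markers were higher in HDC-S than in HDC-M for 6 of 6 genes (median 0.14), and erythroid markers for 3 of 3 (median 0.08). Of the 4 granulocyte markers 2 were higher in HDC-S than in HDC-M and 1 was higher in HDC-A against HDC-M. None of the adipocyte, erythroid or granulocyte markers passed in these comparisons, with 1 adipocyte marker at an unadjusted p under 0.05 in each.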
